A study of Rattus norvegicus and Mus musculus with 17 samples.

Results

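The genes described are 7 members of the transcriptional response to low oxygen: Ndrg1, P4ha1, P4ha2, Adm, Vegfa, Bnip3 and Egln3. They were found by symbol, without regard to case, in the deposited tables, which together list 11532 symbols. Of the 7, 6 had a row in at least 1 table and Bnip3 had none. The mouse table held 4 of them (P4ha1, P4ha2, Vegfa and Egln3, of 4649 genes), that of the Morris hepatoma had 5 (Ndrg1, P4ha1, P4ha2, Adm and Egln3, of 9082) and the regenerating liver table Adm alone (of 2093). A gene that a table does not list has no value there.

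Male C57BL/6 mice received diethylnitrosamine (DEN, a liver carcinogen, 50 mg/kg) at 14 days of age and TCPOBOP, a liver tumour promoter (2 mg/kg), 30 days later, in both mouse groups. Livers with tumours were taken at 8 months (n = 3) and livers before tumours at 5 months (n = 3), so that tumours and age cannot be told apart. Hepatomas were grown for 2 weeks from MH3924a, a transplantable rat hepatoma line, injected into the liver of male ACI rats aged 10 weeks (n = 4). Regenerating liver came from male ACI rats of 10 to 12 weeks at 24 hours after partial hepatectomy (n = 4), and untreated age-matched male ACI liver was the control of both rat groups (n = 3). The hepatoma is 1 cell line grown in a host, and separate animals per library are not stated, so the tests measure the spread between these libraries, which may be technical.

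Cells sense oxygen through prolyl hydroxylases, which use it to mark the alpha subunits of the hypoxia-inducible factors (HIFs) for destruction by the von Hippel-Lindau protein. When oxygen is short the subunits persist, pair with Arnt and raise genes for glucose use, vessel growth and matrix modification. Hepatocytes normally meet a falling oxygen supply along the lobule, and liver tumours can outgrow their vessels. Several of the members also answer to other stimuli, such as growth factors and stress.

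The members have different roles. Egln3 is one of the HIF prolyl hydroxylases and is itself a HIF target. Vegfa, a vessel growth factor, and Adm, the precursor of the vasodilator adrenomedullin, act outside the cell. P4ha1 and P4ha2 are alternative catalytic subunits of the collagen prolyl 4-hydroxylase, which stabilises the collagen triple helix. Ndrg1 is a stress-induced cytoplasmic protein, and Bnip3 is a mitochondrial protein of mitophagy.

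The promoter stretches are shown for the rat members that had a value and an entry in the RefSeq table (build GRCr8). Each is the 250 bases before the listed start, 5′ to 3′, on the gene's strand. Capitals mark the letters ACGTG and GCGTG, the core that HIFs bind, searched on both strands (CACGT and CACGC on the other). Ndrg1 is named only. The stretches lie at chr20:27844796-27845045 (P4ha1, plus strand), chr10:38743644-38743893 (P4ha2, plus strand), chr1:174179950-174180199 (Adm, plus strand) and chr6:77411016-77411265 (Egln3, minus strand).
P4ha1: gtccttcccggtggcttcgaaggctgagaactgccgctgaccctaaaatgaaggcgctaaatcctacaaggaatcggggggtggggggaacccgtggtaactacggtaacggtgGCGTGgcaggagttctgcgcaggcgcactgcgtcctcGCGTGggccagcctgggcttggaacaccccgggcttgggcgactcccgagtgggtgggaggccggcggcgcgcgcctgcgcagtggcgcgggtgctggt
P4ha2: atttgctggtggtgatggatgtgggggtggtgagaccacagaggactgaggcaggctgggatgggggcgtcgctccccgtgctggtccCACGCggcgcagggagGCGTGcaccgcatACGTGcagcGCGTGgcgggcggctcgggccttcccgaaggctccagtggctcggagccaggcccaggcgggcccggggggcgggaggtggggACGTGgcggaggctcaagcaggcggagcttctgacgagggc
Adm: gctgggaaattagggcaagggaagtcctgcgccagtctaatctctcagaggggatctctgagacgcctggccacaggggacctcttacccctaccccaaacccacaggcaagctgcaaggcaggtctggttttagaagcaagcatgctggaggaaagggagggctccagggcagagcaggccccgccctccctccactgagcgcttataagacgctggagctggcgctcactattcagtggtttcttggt
Egln3: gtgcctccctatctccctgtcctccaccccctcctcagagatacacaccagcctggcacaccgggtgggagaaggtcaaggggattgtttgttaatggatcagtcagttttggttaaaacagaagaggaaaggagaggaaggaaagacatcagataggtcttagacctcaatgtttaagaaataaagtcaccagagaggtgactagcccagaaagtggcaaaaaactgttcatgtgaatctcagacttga

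The P4ha2 stretch held 2 copies of ACGTG and 3 of GCGTG, and the P4ha1 stretch held 2 of GCGTG. In P4ha2 the ACGTG copies began 133 and 41 bases before the listed start. The Adm and Egln3 stretches held neither motif. Of 33469 rat promoter stretches of this length, 16.6% held ACGTG, 25.9% GCGTG and 36.7% at least 1 of them. The G and C share was 67.6% for P4ha1, 72.4% for P4ha2, 58.8% for Adm and 46.8% for Egln3. A match is a string of letters, not a shown binding site. P4ha2, with the most matches, had the smallest change of these members in the hepatoma. A link between matches and change was not tested.

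Values are RPKM, which can be compared between genes because they are per length. Low values moved in steps of 1 read, and the relative depths below put 58.2 to 76.3% of the low genes used within 0.03 read of a whole number. They gave depths of 1.04 to 1.22 for the DEN livers with tumours and 0.943 to 1.02 for those before tumours, relative to library 1 before tumours. On the same footing, relative to control library 1, the depths were 1.02 to 1.06 and 1.08 for the hepatomas, 1.04 to 1.18 for regenerating liver and up to 1.14 for controls. Fold changes are given as log2 differences of RPKM + 1 with their SE; adding 1 shrinks the change of genes at low levels. All tables list only genes that differed at a deposited p-value under 0.05, so groups that do not overlap are the rule in them: this held for 3683 of 3684 tested genes in the DEN table, 98.6% of 8233 in the Morris table and 93.0% of 1703 in the regenerating table. Control library 3 and hepatoma libraries 3 and 4 stood apart in hepatocyte transcripts. The 11 hepatocyte markers listed summed to 1052, 40.4, 23848 and 20181 RPKM in hepatoma libraries 1 to 4. In control libraries 1 to 3 they summed to 124815, 113193 and 89201 RPKM. Of these markers 10 were tested and 1 was called lower, beside 8.73% of all tested genes. The markers did not agree in control library 3. Ttr, the thyroid hormone carrier, had 20082 and 17376 RPKM in control libraries 1 and 2 and 4688 RPKM in library 3. Alb, Apoa2, Ahsg, Cyp2e1 and, slightly, Tat were also lowest in library 3. Apoa1 (5541 RPKM against 3313 and 2293 RPKM), Serpina1 (20517 against 12629 and 11690) and Cps1 (467 against 322 and 354) were highest there.

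The comparison of Morris hepatoma with control liver asked which genes differ between the transplanted tumour and normal rat liver. All 5 listed members passed the filter and rose in the hepatoma, in a table where 94.3% of tested genes were called, 85.5% higher and 8.73% lower, and the median log2 fold change was 1.58. For Ndrg1, Adm and Egln3 the control libraries alone would not have passed the filter, so these genes were tested because of their level in hepatoma and could hardly have been called lower; the count is no support for a direction. Ndrg1, Adm, Egln3 and P4ha1 rose far more than that median, and P4ha2 rose by about as much as it. The gain in group means was 98.1-fold for Ndrg1, 236-fold for Adm, 32.8-fold for Egln3, 24.1-fold for P4ha1 and 3.49-fold for P4ha2.

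Egln3 (GeneID 54702), the hydroxylase that marks HIF subunits, had 161, 79.3, 66.3 and 82.7 RPKM in hepatoma libraries 1 to 4, against 0.860, 1.08 and 6.95 RPKM in control libraries 1 to 3. Every hepatoma library lay above every control library, and control library 3 lay well above the other controls. The group means were 97.2 ± 42.9 RPKM in hepatoma and 2.96 ± 3.46 RPKM in control liver (SD, n = 4 and 3). The log2 fold change was 4.88 ± 0.58 (limma adjusted p = 0.00045), and without control library 3 it was 5.56.

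Adm (GeneID 25026), the vasodilator precursor, had 105, 51.6, 32.4 and 64.2 RPKM in hepatoma libraries 1 to 4 and 0.467, 0.187 and 0.149 RPKM in control libraries 1 to 3. The steps of 1 read put the control values at 22, 9 and 8 reads, the smallest whole numbers that match within 0.01 read, so the control level rests on few reads. Among the members it had the lowest control level and the widest range in hepatoma, where library 1 was 3.24 times library 3. Its log2 fold change was 5.55 ± 0.35 (limma adjusted p = 2.8e-06).

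P4ha1 (GeneID 64475), a collagen hydroxylase subunit, had 222, 136, 104 and 129.8 RPKM in hepatoma libraries 1 to 4 and 4.73, 5.05 and 8.60 RPKM in control libraries 1 to 3. Hepatoma library 1 was again highest and library 3 lowest. The log2 fold change was 4.37 ± 0.29 (limma adjusted p = 1.8e-06).

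P4ha2 (GeneID 360526), the alternative subunit, had 34.1, 28.6, 30.5 and 31.8 RPKM in hepatoma libraries 1 to 4, against 7.51, 9.32 and 10.00 RPKM in control libraries 1 to 3. It was the most even member, with hepatoma values within 1.19-fold of each other. Its log2 fold change of 1.70 ± 0.16 (limma adjusted p = 1.6e-05) lay 0.12 above the median of the tested genes, and was 0.04 with library medians set equal and 0.17 under quantile normalization (adjusted p = 1.0 for each).

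Ndrg1 (GeneID 299923), the stress-induced protein, had 179, 134, 112 and 132 RPKM in hepatoma libraries 1 to 4, against 0.979, 0.916 and 2.37 RPKM in control libraries 1 to 3. The groups lay far apart, with control library 3 highest among the controls. The log2 fold change was 5.89 ± 0.25 (limma adjusted p = 3.7e-07), which ranked 45 from the top among 8233 tested genes. Adm ranked 74, Egln3 134, P4ha1 248 and P4ha2 3693. The order of Ndrg1 and Adm depends on the amount added before the logarithm: with 0.1 RPKM in place of 1, the change was 7.40 for Adm and 6.62 for Ndrg1.

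**Figure D1:**
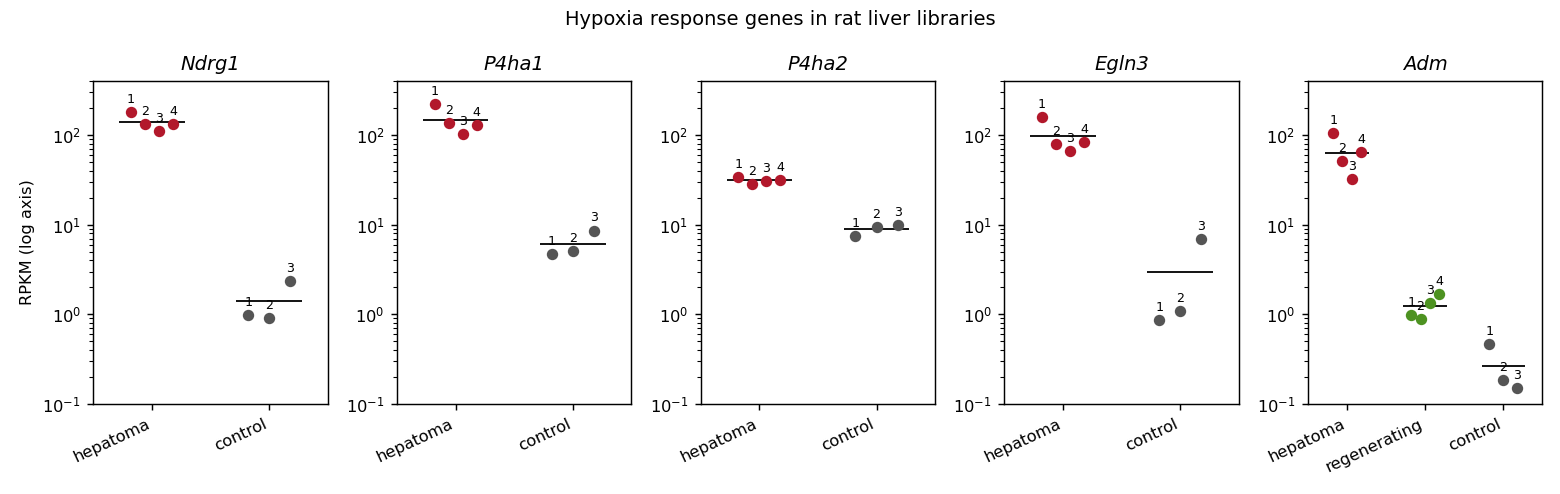
RPKM (log axis) of the 5 listed genes in each rat library, as points with the library number; horizontal lines are group means. Hepatoma libraries lie above every control library for each gene, and Adm in regenerating liver (0.896 to 1.69 RPKM) lies between both.

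Within the hepatoma the mean levels ran from P4ha1 (148 RPKM) through Ndrg1 (139), Egln3 (97.2) and Adm (63.3) to P4ha2 (31.2). The ranges of neighbours in this order overlapped between libraries. Within a library, Ndrg1 lay above Egln3, Egln3 above Adm and Adm above P4ha2 in 4 of 4 libraries each, while P4ha1 lay above Ndrg1 in 2 of 4. In control liver the order was P4ha2 (8.94 RPKM), P4ha1 (6.12), Egln3 (2.96), Ndrg1 (1.42) and Adm (0.268). The ranges of P4ha2 and P4ha1 overlapped there, as did those of P4ha1 with Egln3 and Egln3 with Ndrg1, while all Ndrg1 values lay above those of Adm. Within a library this order held in 3 of 3 controls for each neighbouring pair except Egln3 and Ndrg1, with 2 of 3. Library 1 had the highest level of each of the 5 genes in the hepatoma, and library 3 the lowest of Ndrg1, P4ha1, Egln3 and Adm.

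Hepatoma library 3 also held the most hepatocyte transcripts, while library 4, with a similar sum, was not lowest in any of the 5 genes. In control library 3, where Egln3, Ndrg1, P4ha1 and P4ha2 were highest, Adm was lowest. Without control library 3 and hepatoma library 3 together, an alternative chosen after seeing the data, all 5 members were still called higher, the Egln3 change was 5.71, and 51 pathway genes of the lists given below were called, 49 of them higher. In bulk tissue, more cells of a type and more RNA per cell cannot be told apart. Markers of other cell types moved with the hepatoma group. Their counts stand beside 85.5% of all tested genes called higher and 8.73% lower, and the table lists only genes selected as different. All 4 listed endothelial markers (of 10) rose, with sums of 57.0 to 88.7 RPKM in hepatoma and 9.27 to 16.7 RPKM in controls. Each of the 7 listed stellate cell and fibroblast markers (of 10) rose, with sums of 471 to 1195 RPKM in hepatoma and 20.2 to 84.6 RPKM in controls. Of 5 listed macrophage markers (of 10) 3 rose and 1 fell, with sums of 745 to 1353 RPKM in hepatoma and 161 to 198 RPKM in controls. Lyz2 made up most of the hepatoma sum, with 581 to 1232 RPKM against 12.0 to 50.7 RPKM in controls. Cd68 and Cd163 were also higher in hepatoma. Clec4f (6.02 to 26.8 RPKM against 70.2 to 91.9 RPKM) and Cd5l (0.412 to 12.2 RPKM against 28.6 to 38.2 RPKM) were lower there. T and NK cell markers (4 listed of 8, 3 higher and 1 lower) summed to 8.85 to 21.5 RPKM in hepatoma and 2.98 to 4.93 RPKM in controls. Spp1, the 1 listed cholangiocyte marker of 6, rose with 182 to 265 RPKM in hepatoma against 0.578 to 1.33 RPKM in controls. None of these listed markers was without reads in all libraries of a group, and no neutrophil marker was listed. The part of these cells in the members' change was not tested.

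**Figure D2:**
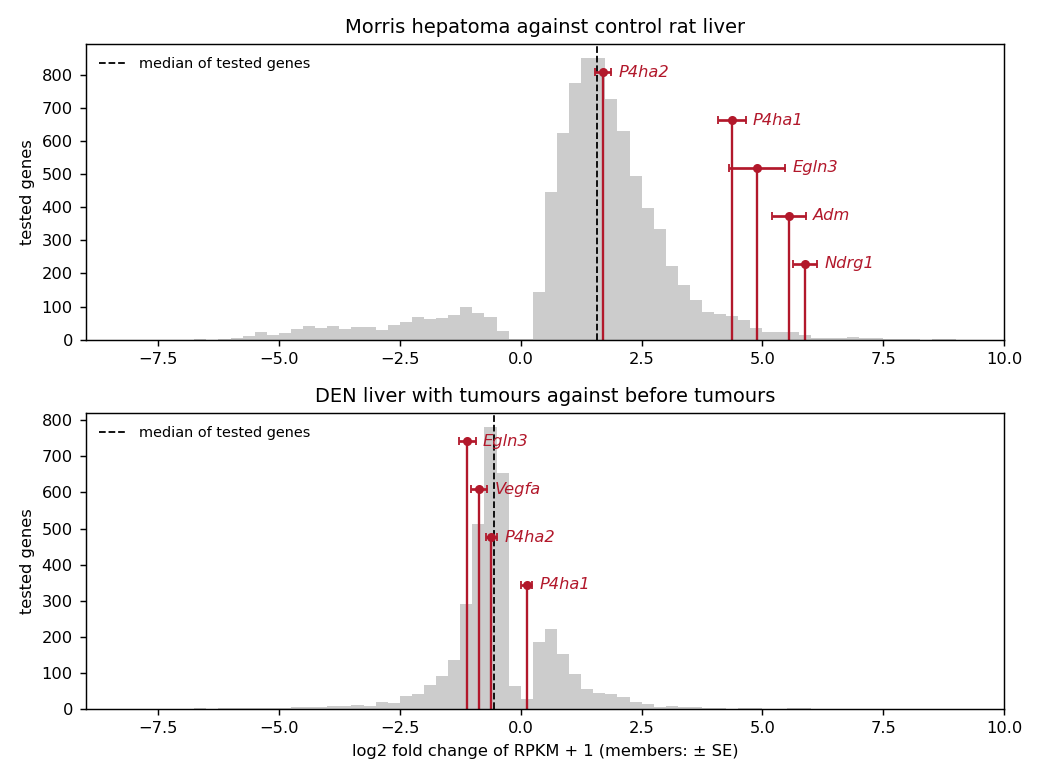
Histograms of the log2 fold change of all tested genes, for hepatoma (top) and DEN liver (bottom), with the members as red lines at their change ± SE; the height of a line has no meaning. In the hepatoma Ndrg1 (5.89), Adm (5.55), Egln3 (4.88) and P4ha1 (4.37) lie in the upper tail and P4ha2 (1.70) beside the median of 1.58; in DEN liver P4ha1 (0.12) lies above the median of -0.56 and Egln3 (-1.11) and Vegfa (-0.86) below it.

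Regenerating liver was compared with the same control libraries, to ask which genes differ in normal liver growth. Of the members its table lists Adm, which had 0.988, 0.896, 1.35 and 1.69 RPKM in regenerating libraries 1 to 4 and 0.467, 0.187 and 0.149 RPKM in control libraries 1 to 3. All 4 regenerating libraries lay above all 3 controls, in a table where groups did not overlap for 93.0% of tested genes. The steps put the regenerating values at 55, 44, 68 and 87 reads. Adm did not reach 1 RPKM in 3 libraries and so was not tested there, in a table where 22.0% of the tested genes were called, 21.2% higher and 0.763% lower. Without that filter its log2 fold change was 0.81 ± 0.14 (limma adjusted p = 0.026), and the exact two-sided permutation test gave p = 0.057, the smallest that 4 against 3 libraries allow. Because the table lists genes selected as different, this outcome was nearly fixed beforehand and is no support for a difference. The ratio of group means was 4.60. Of the listed markers of other cells, the 2 endothelial ones summed to 8.46 to 15.2 RPKM in regenerating liver and 3.14 to 4.78 RPKM in controls (1 of 2 called higher), and the 3 of stellate cells and fibroblasts to 55.1 to 73.6 RPKM and 17.4 to 46.3 RPKM in controls (1 of 3 called higher). No marker of the other lists has a row in that table. Their part was not tested.

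Set directly against regenerating liver, over the 1673 genes tested of those listed in both rat tables, Adm was higher in the hepatoma by 4.74 ± 0.31 on the log2 scale (limma adjusted p = 2.0e-06). Regenerating libraries 1 and 2 lay below 1 RPKM (0.988 and 0.896 RPKM), so Adm passed the filter through its level in the hepatoma. It could hardly have been called lower in the hepatoma, so the call is no support for a direction. In that comparison 84.8% of tested genes were called, 80.8% higher and 4.0% lower in the hepatoma. The rise of Adm in the hepatoma and its level in regenerating liver are both set against the same 3 control libraries.

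In the mouse, DEN livers with tumours were compared with DEN livers before tumours. Vegfa, Egln3 and P4ha2 fell in livers with tumours, and P4ha1 did not pass the test. These 3 of 4 tested members stand in a table where 67.3% of 3684 tested genes were called, 49.5% lower and 17.9% higher, and the median log2 fold change was -0.56. Setting library medians equal shifted the tested median to -0.16 and quantile normalization also to -0.16, and the calls depended on this: Vegfa and Egln3 lost theirs under each scaling, P4ha2 under median scaling alone, and P4ha1 was called higher under median scaling.

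Egln3 (GeneID 112407), the HIF hydroxylase, had 4.05, 2.57 and 2.33 RPKM in libraries 1 to 3 with tumours, against 7.10, 7.71 and 7.49 RPKM in libraries 1 to 3 before tumours. The groups were clearly apart, with library 1 highest among livers with tumours. Its log2 fold change was -1.11 ± 0.17 (limma adjusted p = 0.0047), or -0.71 with medians set equal (adjusted p = 0.098) and -0.79 under quantile normalization (adjusted p = 0.076).

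Vegfa (GeneID 22339), the vessel growth factor and the most abundant listed member in mouse liver, had 15.4, 18.0 and 13.7 RPKM in libraries 1 to 3 with tumours and 33.7, 30.7 and 24.0 RPKM in libraries 1 to 3 before tumours. Means were 15.7 ± 2.20 RPKM with tumours and 29.5 ± 4.97 RPKM before (SD, n = 3 each). The log2 fold change of -0.86 ± 0.17 (limma adjusted p = 0.012) was -0.46 and -0.32 under the scalings (adjusted p = 0.15 and 0.56). The call was lost without library 1 before tumours (limma adjusted p = 0.067), library 2 before tumours (0.069) or library 3 with tumours (0.05004).

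P4ha2 (GeneID 18452), a collagen hydroxylase subunit, had 1.11, 1.41 and 1.28 RPKM in libraries 1 to 3 with tumours and 2.58, 2.58 and 2.18 RPKM in libraries 1 to 3 before tumours. Its log2 fold change was -0.60 ± 0.12 (limma adjusted p = 0.013), which lay 0.05 below the median of tested genes. With medians set equal it was -0.21 (limma adjusted p = 0.62), and the call was also lost without library 1 (0.069) or 2 (0.080) before tumours.

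P4ha1 (GeneID 18451), the other subunit, had 2.50, 2.66 and 2.63 RPKM in libraries 1 to 3 with tumours, against 2.31, 2.17 and 2.44 RPKM in libraries 1 to 3 before tumours. The groups did not overlap but lay within 1.13-fold of each other in their means. The log2 fold change was 0.12 ± 0.11 (limma adjusted p = 1.0), and 0.52 with medians set equal (adjusted p = 0.021).

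**Figure D3:**
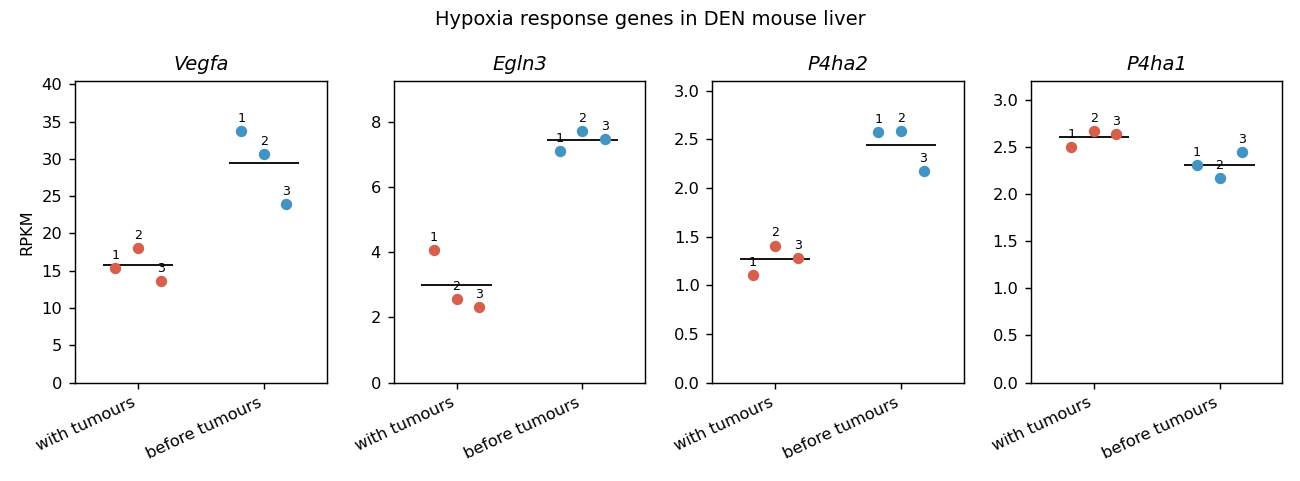
RPKM of the 4 listed genes in each DEN liver library, as points with the library number; horizontal lines are group means and each axis starts at 0. Vegfa, Egln3 and P4ha2 are lower in all 3 libraries with tumours than in all 3 before, and P4ha1 (2.50 to 2.66 RPKM with tumours) differs little from 2.17 to 2.44 RPKM before.

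Other cell markers moved with the DEN groups too, beside 17.9% of all tested genes called higher and 49.5% lower. Of 5 listed endothelial markers (of 10) 3 rose and 1 fell in livers with tumours, with sums of 26.1 to 43.1 RPKM with tumours and 21.0 to 28.3 RPKM before. Acta2, the 1 listed stellate cell marker of 10, rose, with up to 19.5 RPKM with tumours and 2.76 to 5.20 RPKM before. Macrophage markers (5 listed of 10, 4 tested, 2 higher and 1 lower) summed to 83.8 to 115 RPKM with tumours and 91.6 to 112 RPKM before, and Sox9, the 1 listed cholangiocyte marker of 6, rose, with 7.99 to 10.9 RPKM with tumours and 2.38 to 4.36 RPKM before. S100a8, the 1 listed neutrophil marker of 7, had 3.47 to 4.18 RPKM with tumours and 1.19 to 2.66 RPKM before and did not pass the test, and no T cell marker was listed. The 6 listed hepatocyte markers, of 11 (3 higher and 2 lower), summed to 147851 to 165767 RPKM with tumours and 62383 to 76065 RPKM before. These markers did not agree. Alb (78943 to 86115 RPKM against 20865 to 28261 RPKM before), Apoa1 and Ahsg were higher in every library with tumours. Apoa2, Cps1 and Cyp2e1 (60.9 to 597 RPKM against 3085 to 3209 RPKM before) were lower in every one. The part of all these cells in the members' change was not tested.

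P4ha1 and P4ha2 can be set against each other inside a library, which takes out any scaling. The ratio of P4ha1 to P4ha2 was 6.52, 4.74, 3.40 and 4.08 in hepatoma libraries 1 to 4, against 0.629, 0.541 and 0.860 in control libraries 1 to 3. It was 2.26, 1.89 and 2.06 in DEN libraries 1 to 3 with tumours and 0.897, 0.839 and 1.12 in DEN libraries 1 to 3 before tumours. In both tumour models the balance was shifted towards P4ha1, by 2.78 on the log2 scale in the hepatoma (exact two-sided permutation p = 0.057) and by 1.13 in DEN liver (exact two-sided permutation p = 0.10). These are the smallest p-values that 4 against 3 and 3 against 3 libraries allow, so neither could pass 0.05. This ratio was chosen after the values were seen, and both genes come from tables of genes selected as different.

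**Figure D4:**
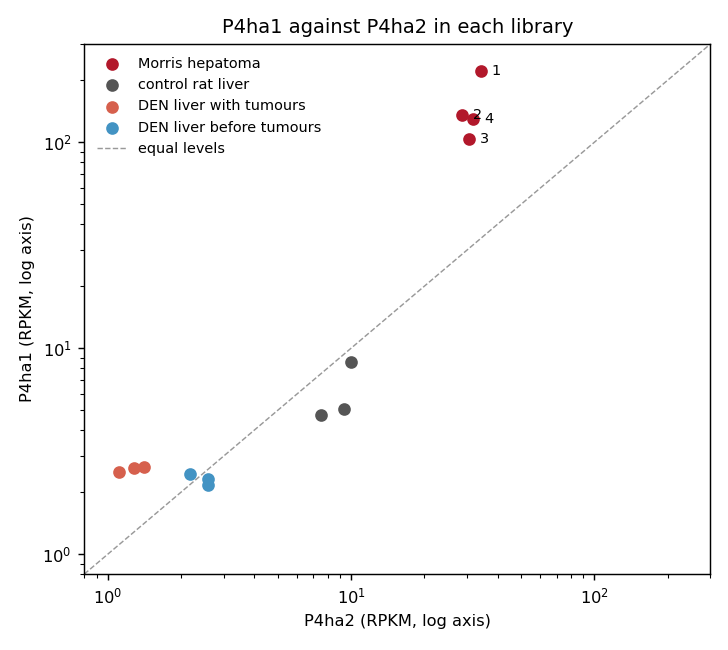
P4ha1 against P4ha2 in each library of the 4 groups, both in RPKM on log axes, with hepatoma libraries numbered; the dashed line marks equal levels. The hepatoma libraries lie at ratios of 3.40 to 6.52 and the DEN livers with tumours at 1.89 to 2.26, while control rat libraries lie at 0.541 to 0.860 and DEN livers before tumours at 0.839 to 1.12.

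For the 3 members listed in both tumour tables, the change in the hepatoma minus the change in DEN liver was tested as an interaction term over 2103 genes, of which 68.7% were called, 66.7% higher and 1.95% lower in the hepatoma. It was 5.99 ± 0.67 for Egln3 (limma adjusted p = 9.2e-05), 4.24 ± 0.35 for P4ha1 (7.5e-06) and 2.31 ± 0.18 for P4ha2 (4.5e-06). All genes in this fit were listed as different in both tumour tables. For Egln3 the control rat libraries alone would not have passed the filter, so it was tested because of its level in hepatoma. Its call is therefore no support for a direction. Without scaling, Egln3 and P4ha2 rose in the hepatoma and fell in DEN liver, which the interaction term does not itself test. The DEN calls were lost under median scaling for both genes, and under quantile normalization for Egln3. The P4ha2 rise in the hepatoma was 0.04 and 0.17 under the scalings and was not called. With medians set equal the P4ha2 difference was 0.79 (limma adjusted p = 0.090), and under quantile normalization 1.46 (0.0022). The models differ in species, in the tissue they are set against and in host, so these cannot be told apart from the kind of tumour.

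The wider pathway was described with 6 lists holding 75 genes, 68 of them no members. In the hepatoma 49 of these 68 were tested, of which 45 rose, 1 fell and 3 did not pass, with a median log2 fold change of 2.50 beside 1.58 for all tested genes. These counts, and those of each list, stand beside 85.5% of all tested genes called higher. For 19 of the 49 (38.8%, against 26.8% of all tested genes) the control libraries alone would not have passed the filter, so the counts and the median are given as a description. Including the members, 50 of 54 were higher and 1 lower, against 31 and 7 with medians set equal and 33 and 6 under quantile normalization. Setting medians equal lowers every hepatoma change by the same 1.66, which put 10 of the 50 below 0, and quantile normalization put 8 of them below 0. Both scalings assume that libraries are alike over genes that were selected as different, and this was not tested.

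Among the oxygen sensors and HIFs, all 4 tested genes other than Egln3 rose. Hif1a, the regulated HIF subunit, had 35.6 ± 5.90 RPKM in hepatoma and 5.43 ± 0.378 RPKM in control liver, a log2 fold change of 2.50 ± 0.17 (limma adjusted p = 2.5e-06). Vhl, which targets it for destruction, changed by 3.08 ± 0.20 (limma adjusted p = 1.7e-06). Arnt, the constant partner, changed by 1.21 ± 0.18 and by -0.45 under either scaling. Hif1an, an asparagine hydroxylase that blocks HIF activity, changed by 0.69 ± 0.21 and by -0.98 and -0.93 under the scalings, and its call was lost without control library 1 or 3 or hepatoma library 4 (limma adjusted p up to 0.10). Epas1, Hif3a, Egln1 and Egln2 were not listed.

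The 6 tested vascular genes besides Adm rose, of which 5 (Pgf, Angpt2, Edn1, Flt1 and Ramp3) had control libraries that would not have passed the filter alone. Pgf, a placental relative of Vegfa, had 31.2 ± 15.3 RPKM in hepatoma and 0.0128 ± 0.0205 RPKM in control liver, and Ramp2, which pairs with the adrenomedullin receptor, had 140 ± 41.4 RPKM in hepatoma and 10.9 ± 10.3 RPKM in control liver. The rise of Ramp2 was 3.86 ± 0.53 on the log2 scale (limma adjusted p = 0.00068) and 4.53 without control library 3. Of the collagen-modifying genes all 5 tested besides P4ha1 and P4ha2 rose, 3 of them (Plod2, Lox and Loxl2) past the filter through the hepatoma libraries, among them the lysyl hydroxylase Plod2 (3.60 ± 0.41) and the crosslinking oxidase Lox (3.33 ± 0.41). P4ha3, the remaining catalytic subunit, was listed without reads in all 3 controls and at 1.36 ± 0.580 RPKM in hepatoma, and was not tested.

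Of the genes for glucose use and acid handling 17 of 18 rose, and 9 of the 18 passed the filter through the hepatoma libraries. The glucose transporter Slc2a1 (5.77 ± 0.20 on the log2 scale), the lactate exporter Slc16a3 (5.12 ± 0.38) and the hexokinase Hk2 (4.68 ± 0.21) changed most, and Ldha, a lactate dehydrogenase subunit, changed by 0.59 ± 0.23 (limma adjusted p = 0.087) and by -1.07 and -0.12 under the scalings. In the mitophagy list Bnip3l, the relative of Bnip3, had 30.7 ± 3.81 RPKM in hepatoma and 19.6 ± 2.11 RPKM in control liver. Its change of 0.61 ± 0.17 (limma adjusted p = 0.018) was -1.05 and -0.78 under the scalings, and its call was lost without control library 1 (0.053) or hepatoma library 4 (0.054). Fundc1, a mitophagy receptor, changed by 0.38 ± 0.14 (limma adjusted p = 0.071) and by -1.28 and -1.26 under the scalings. Of 14 other HIF-responsive genes tested besides Ndrg1, 12 rose, led by the secreted glycoprotein Stc2 (3.99 ± 0.19) and the mTOR inhibitor Ddit4 (3.51 ± 0.30). For 2 of the 14, Stc2 and Ankrd37, the control libraries alone would not have passed the filter, so they could hardly have been called lower. Insig2, a brake on sterol synthesis, was the 1 that fell (-3.25 ± 0.68, limma adjusted p = 0.0094), and Ak4, a mitochondrial adenylate kinase, did not pass (-2.02 ± 0.65, adjusted p = 0.062).

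In DEN liver 15 of the 68 other pathway genes were tested, of which 5 rose, 7 fell and 3 did not pass, with a median log2 fold change of -0.47 beside -0.56 for all tested genes, of which 17.9% were called higher and 49.5% lower. Including the members, 5 were higher and 10 lower, against 7 and 3 with medians set equal and 7 and 2 under quantile normalization. Igfbp1, an insulin-like growth factor binding protein made by hepatocytes, had 598 ± 132 RPKM with tumours and 26.6 ± 12.8 RPKM before (4.52 ± 0.34, limma adjusted p = 0.00034). Loxl2, a collagen crosslinking enzyme, had 2.39 ± 0.0538 RPKM with tumours and 1.05 ± 0.499 RPKM before (0.75 ± 0.17, limma adjusted p = 0.025), and its call was lost without library 2 (adjusted p = 0.11) or 3 (0.10) before tumours or library 1 (0.069) or 3 (0.061) with tumours. Loxl2 was the 1 of the 15 whose libraries before tumours alone would not have passed the filter, beside 7.19% of all tested genes. It could hardly have been called lower. Pdk1, a kinase that restrains pyruvate entry into mitochondria, fell by 1.41 on the log2 scale, and the glycolytic enzyme Eno1 fell by 1.22. Insig2 fell by 1.31 and the transcriptional repressor Bhlhe40 fell by 1.18. Under quantile normalization the calls of Eno1 (-0.43, limma adjusted p = 0.24) and Insig2 (-0.59, 0.18) were lost. The Bhlhe40 call was lost under median scaling (-0.78, limma adjusted p = 0.15), quantile normalization (-0.65, 0.37) and a filter at 5 RPKM (0.055). It was also lost without 4 of the 6 libraries singly (library 1, 2 or 3 before tumours, or library 1 with tumours, limma adjusted p up to 0.13). Plod1 (-0.47 ± 0.13), Gapdh (-0.42 ± 0.15) and Ldha (0.54 ± 0.18) did not pass the test, but under quantile normalization Plod1 was 0.06, Gapdh was called higher (0.72, limma adjusted p = 0.013) and so was Ldha (1.33, 0.0062), which median scaling also called higher (0.94, 0.025).

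In regenerating liver 5 pathway genes were tested, none of them a member, and limma called 0 of them, beside 22.0% of all tested genes. All 5 had an unadjusted p under 0.05, as did 95.9% of all genes tested there, since the table lists genes selected by their p-value. These were Vhl (0.34 ± 0.12 on the log2 scale), the collagen hydroxylase partner P4hb (0.67 ± 0.16), Loxl2 (1.40 ± 0.29), Slc2a1 (0.38 ± 0.13) and the pyruvate dehydrogenase kinase Pdk3 (0.54 ± 0.15). Vhl, Slc2a1 and Pdk3 lay below 0 under either scaling. Slc2a1, called in the hepatoma, had 3.78 ± 0.481 RPKM in regenerating liver and 2.67 ± 0.407 RPKM in control liver (SD, n = 4 and 3).

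**Figure D5:**
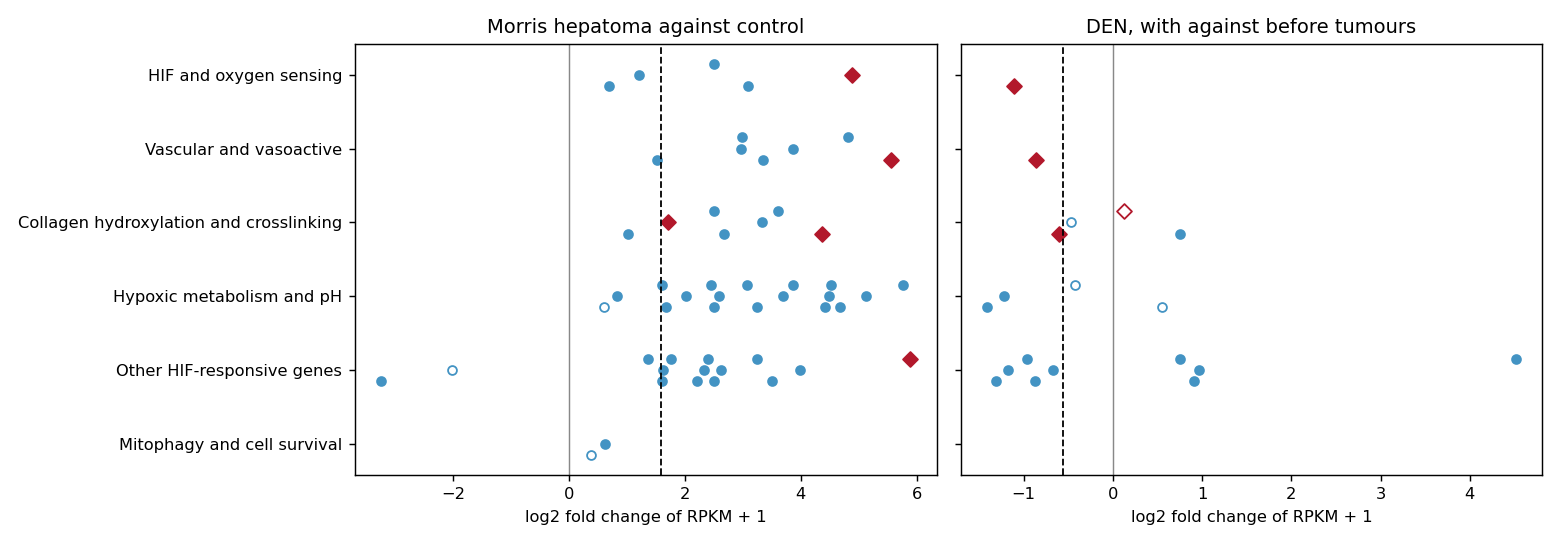
Log2 fold change of each tested pathway gene by list, for the hepatoma (left) and DEN liver (right); diamonds are members, circles other genes, and open symbols did not pass the test. The dashed line is the median of all tested genes (1.58 and -0.56). Most hepatoma genes lie right of 0 and many right of the dashed line; of the 50 called higher there, 10 lie below 0 with medians set equal.

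The genes whose levels over libraries were most like each member were ranked by Pearson correlation of log2(RPKM + 1), as a description. Over the 7 libraries of the Morris table these were Ralgapa1, Odc1 and Pigz for Ndrg1, Gys1, Prdm4 and Spata7 for P4ha1, Plekha3, Pick1 and Etv3 for P4ha2, and Trim6, Clstn1 and Wnt7b for Adm. For Egln3 they were Tns3, Pfkl and RGD1566265. All had r of at least 0.997, yet 57.8% of tested genes had r above 0.95 with Ndrg1 and 30.8% with Egln3, because the groups lie far apart. Between members r ran from 0.961 (Adm with Egln3) to 0.997 (Ndrg1 with P4ha1). Over the 6 DEN libraries they were Hddc2, Myo10 and Nup107 for P4ha1 (r = 0.987 to 0.995), Smcr7, Nsmf and Slc1a2 for P4ha2, Frat1, Npepl1 and Manbal for Vegfa, and Cyp1a2, Oaf and Rpusd3 for Egln3 (0.994 to 0.995). There P4ha1 had negative r with each of the other members, from -0.837 with P4ha2 to -0.886 with Egln3.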

How the data were processed

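RNA was sequenced from 17 liver libraries of mice and rats. The authors deposited 3 tables with a value per gene and library. These deposited values were read as RPKM, that is, reads scaled by the authors to transcript length and library size; the headers name no unit, and 0.001 stands for no reads. Per the file headers the tables also hold a log2 ratio of the group means and a p-value. The deposited p-value was below 0.05 for every listed gene. Aligner, genome build, annotation and counting are not given in the sources used here. 1 line of the Morris table names no gene and was left out.

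Each whole table was fitted in R 4.3.3 with limma 3.58.1, two-sided, using its trend and robust options on log2(RPKM + 1). A gene entered when the number of libraries at 1 RPKM or more reached the size of the smaller group. A call needed an adjusted p (Benjamini-Hochberg) below 0.05. Because the tables are preselected, the adjustment counted every annotated protein-coding gene, 21951 of GENCODE M21 for the mouse and 23148 of RefSeq GRCr8 for the rat. The procedure was tested on simulated data. Its false calls there exceeded the nominal rate, so the adjusted p-values understate the error.

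The change of a gene was also compared between the tumour models by an interaction term over genes listed in both tables. Relative depth was read from low values, which move in steps of 1 read. Single values were compared with exact two-sided permutation tests. Marker and pathway lists, and the members, were chosen with earlier results of these data known. Text names every member, the 3 most changed genes of each pathway list (all called genes in lists of up to 5 tested), the HIF subunits and oxygen sensors, and the 3 genes most correlated with each member; the Insig2 and Ak4 values in rats, the uncalled genes and the single values of marker genes were picked after their values were seen. The alternatives were another pseudocount (0.1), no filter or a filter at 5 RPKM, median scaling, quantile normalization, limma without trend and robust settings, adjustment over tested genes alone, a replicate block, all 3 rat groups in 1 fit, and leaving out libraries. Other steps used Python 3.11.15 (pandas 2.3.3, matplotlib 3.10.9, scipy 1.17.1).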

Additional observations from a re-analysis of the deposited data

Results flagged for a closer look

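The changes of Egln3, P4ha1 and P4ha2 differed between the tumour models by the test of the difference itself. The change in the hepatoma minus the change in DEN liver was 5.99 for Egln3, 4.24 for P4ha1 and 2.31 for P4ha2 on the log2 scale (limma adjusted p = 9.2e-05, 7.5e-06 and 4.5e-06). Egln3 passed the filter in the rat libraries through its level in the hepatoma, so its call is no support for a direction. With medians set equal the P4ha2 difference was 0.79 and no longer passed (limma adjusted p = 0.090), while Egln3 (4.47, 0.0073) and P4ha1 (2.72, 0.0035) did. For each of the 3 genes all 4 hepatoma libraries lay above all 3 controls. In DEN liver all 3 libraries with tumours lay below all 3 before tumours for Egln3 and P4ha2, and above them for P4ha1. Groups also did not overlap for 98.6% of tested genes in the Morris table and 3683 of 3684 in the DEN table. Such separation therefore does not set these members apart. The cause of the difference between the models was not tested. No library of a group of 4 stood out from its group in any member by Dixon's 95% criterion. Egln3 in hepatoma library 1 had 161 RPKM all the same, against 66.3 to 82.7 RPKM in the other hepatoma libraries.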

How the results depend on the processing

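The direction of each member's change held in every comparison and alternative that could be run. In DEN liver 3 members were called, against 1 under median scaling (P4ha1, higher), 1 under quantile normalization (P4ha2) and 1 to 3 when a library was left out. There 15 pathway genes were called, against 8 with a filter at 5 RPKM and 9 under quantile normalization. It was 7 to 15 when a library was left out, with 7 without library 1 or 2 before tumours. Calls over all genes fell too, from 2481 of 3684 to 1361 of 2412 with that filter, 1526 under median scaling and 1472 under quantile normalization. Without library 1 or 2 before tumours they were 1112 and 1119 of 3510, so the fall was not confined to the pathway genes. In the hepatoma 5 members and 51 pathway genes were called, against 1 and 5 when the 3 rat groups shared a fit, where genes had to be listed in both rat tables. Over all genes 7761 of 8233 were called in the hepatoma, and 1621 of 1696 in the shared fit. In regenerating liver 0 members and 0 pathway genes were called, against 1 and 2 without a filter. Of the pathway genes 1 was called without trend and robust settings, 5 with adjustment over tested genes, 1 in the fit of 3 rat groups and 0 to 2 when a library was left out. Over all genes 374 of 1703 were called there, against 472 of 2093 without a filter and 408 of 1703 without trend and robust settings. They were 1626 of 1703 with adjustment over tested genes, 246 of 1696 in the shared fit and 20 to 352 when a library was left out. The difference between tumour models was called for 3 members, and for 1 with a filter at 5 RPKM, which Egln3 alone passed. Scaling shifted the median of all tested genes by -1.66 and -1.53 in the hepatoma, -0.63 and -0.62 in regenerating liver and 0.40 and 0.39 in DEN liver (median scaling and quantile normalization). Both scalings were set over tested genes that had been selected as different. Of the listed genes 7973 of 9082 were higher in the hepatoma, 1965 of 2093 higher in regenerating liver and 3321 of 4649 lower in DEN liver. Equal medians are thus an assumption, and lost calls or changed signs under scaling depend on it. Median scaling moves every gene of a table alike, so any gene with a smaller change turns: 12 and 10 of 54 tested pathway genes changed sign in the hepatoma, 3 and 3 of 5 in regenerating liver and 0 and 2 of 19 in DEN liver. Among the genes that the naming rule picked, the hepatoma changes of Arnt (-0.45 and -0.45), Hif1an (-0.98 and -0.93) and Bnip3l (-1.05 and -0.78), and the regenerating change of Vhl (-0.28 and -0.32), were below 0. Where no construction of the setting shows it, the cause was not tested.

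The labels number the libraries but do not pair them. Same-numbered libraries deviated together with r from -0.32 to 0.15. With the replicate number as a block, 3 members and 14 pathway genes were called in DEN liver, where Bhlhe40 lost its call (limma adjusted p = 0.082), 5 and 48 in the hepatoma, 0 and 0 in regenerating liver, and 1 and 5 between hepatoma and regenerating liver. Over all tested genes the block gave 1972 calls in DEN liver, 6967 in the hepatoma, 25 in regenerating liver and 1425 between hepatoma and regenerating liver. The libraries number 3 or 4 a group, and counting intervals are not given because absolute depth was not read.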
